A study of Mus musculus with 9 samples.

Results

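The insulin-like growth factor (IGF) axis was followed through 10 genes in tibialis anterior muscle of mice whose fibers had been made with fewer nuclei. The 10 genes were 1 ligand (Igf1), 2 receptors (Igf1r and Insr), 2 receptor adaptors (Irs1 and Irs2) and 5 binding proteins (Igfbp3, Igfbp4, Igfbp5, Igfbp6 and Igfbp7), each taken as the array row annotated with its symbol. Each of the 10 had 1 row among the 22206 gene rows of the array.

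In muscle, IGF-1 made in the liver or in the tissue itself binds the IGF-1 receptor on the fiber, the receptor phosphorylates the adaptors IRS1 and IRS2, and these switch on PI3K and Akt, which raise protein synthesis through mTORC1 and hold back the FoxO factors that drive protein breakdown. The insulin receptor is built on the same plan and uses the same adaptors. IGF binding proteins are secreted: they hold IGFs outside the cell, can lengthen their life or block their access to the receptor, and some also act without IGFs. IGFBP6 prefers IGF-II over IGF-I, IGFBP4 mostly inhibits IGF action until the protease PAPP-A cleaves it, IGFBP5 is made by muscle cells as they differentiate, IGFBP3 carries most IGF in blood, and IGFBP7 binds IGFs only weakly and is a product of vessel walls.

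Myomaker (Mymk) is the membrane protein that lets muscle progenitors fuse with fibers. All mice carried conditional (floxed) Mymk alleles, written 8c in the labels, and Δ1w and Δ2w mice (D1w and D2w in the labels) also carried Pax7creER, a tamoxifen-inducible recombinase made in satellite cells, so that tamoxifen stopped those cells from fusing. Δ1w mice received tamoxifen at postnatal day (P) 0 and Δ2w mice at P6; control mice lacked Pax7creER and are labelled as without tamoxifen, whereas the study's methods describe the drug as given to all mice. If the labels hold, the drug and the deletion cannot be told apart here. The labels assign 233 myonuclei per fiber to control, 100 to Δ2w and 55 to Δ1w, group values counted in another muscle, the extensor digitorum longus. The study counted Δ1w fibers at P28 but Δ2w fibers at an older age than that of the arrays. Each group had 3 mice killed at P28 with 1 Clariom S Mouse array per mouse, 9 arrays in all. One floxed allele was replaced by a LacZ allele in 6 of the 9 mice (2 control, 1 Δ1w and 3 Δ2w), and 8 of the 9 carried the mTmG reporter, the exception being Δ1w replicate 8. Because RNA of whole muscle was hybridized, fewer cells of a type and less RNA per cell cannot be told apart.

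Mymk, the targeted gene, was low in every Δ mouse: 11.82, 12.03 and 11.61 log2 signal in control, 8.99, 7.49 and 7.94 in Δ1w, and 8.39, 7.67 and 6.70 in Δ2w. It fell by 3.68 on the log2 scale in Δ1w (limma adjusted p = 0.00262) and by 4.23 in Δ2w (limma adjusted p = 0.00784). All 6 Δ mice lay below the 95th percentile of the negative control probes on their arrays. With the Δ signals raised to that percentile, control was at least 4.37-fold higher than Δ1w and at least 4.31-fold higher than Δ2w. Fast fiber genes were near the ceiling of the scale on all arrays, with a list mean between 19.0 and 19.1 log2 signal, and none of the 6 satellite cell markers rose above the negative control percentile on any array. That percentile, used here as the mark of a signal clear of background, lay between 9.55 and 10.1 log2 signal over the 9 arrays. Igf1, Insr, Irs1, Igfbp5 and Igfbp7 were above it on all 9 arrays, Igfbp4 on 7, Igfbp6 on 3, Irs2 and Igfbp3 on 1 each, and Igf1r on none. The other 5 genes, Igfbp4 among them with 1 of 3 control arrays above the mark, were thus measured partly or wholly within the range of the background probes.

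Of the 10 genes, 1 changed. Igfbp6 rose in Δ1w muscle, by 1.88 on the log2 scale, and none of the 10 passed the test in Δ2w muscle. Passing means an adjusted p under 0.05 in limma with Benjamini-Hochberg adjustment over all 22206 gene rows, a mark that 1.41% of gene rows reached in Δ1w against control (0.905% upward and 0.5% downward) and 0.045% in Δ2w against control. Both comparisons used the same 3 control mice.

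**Figure D1:**
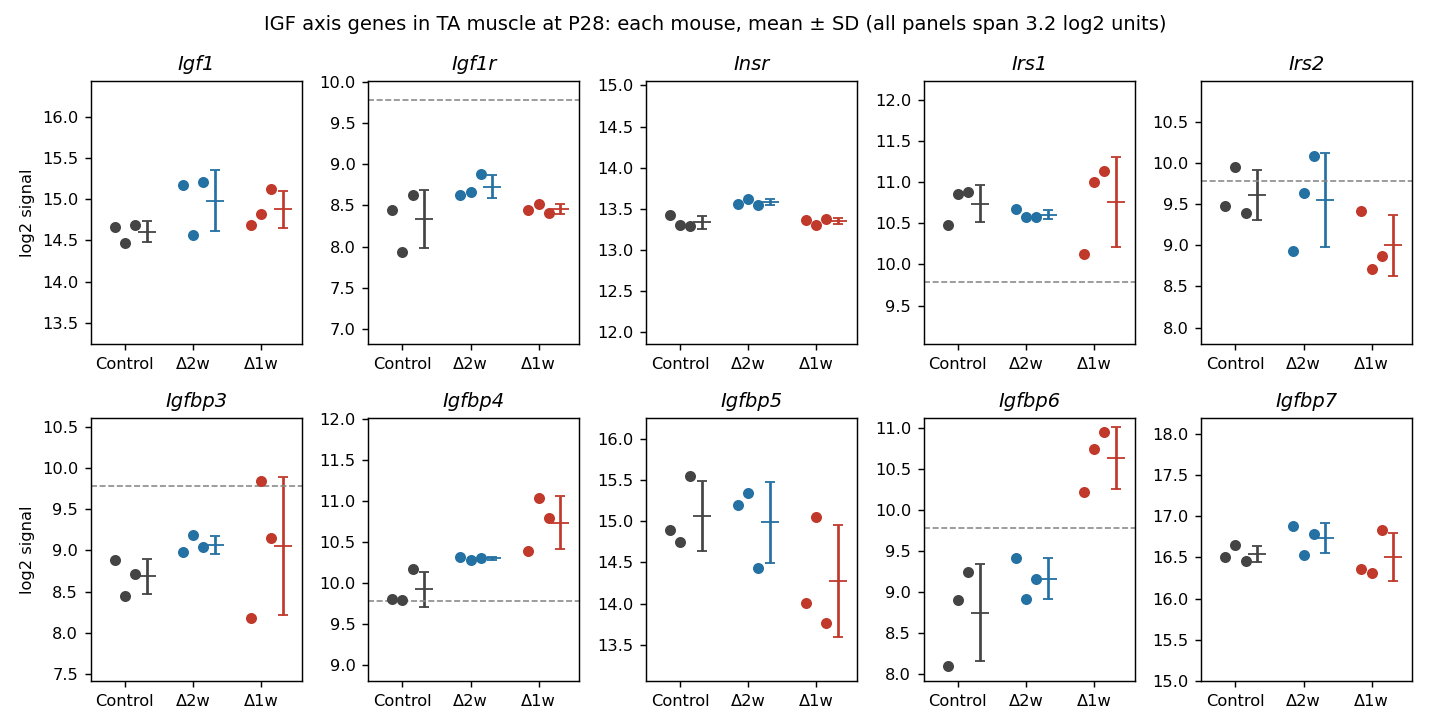
The log2 signal of each of the 10 genes in each mouse (points), with the group mean and SD beside them, for control, Δ2w and Δ1w muscle with 3 mice each. The dashed line, where it falls in the panel, is the mean over arrays of the 95th percentile of negative control probes. Igfbp6 has its 3 Δ1w mice between 10.22 and 10.94, above all other mice, while the receptor Insr spans only 0.34 log2 units over all 9.

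Igfbp6 measured 8.10, 8.91 and 9.24 log2 signal in the control mice, 10.22, 10.73 and 10.94 in the Δ1w mice, and 9.41, 8.91 and 9.16 in the Δ2w mice. All 3 Δ1w mice stood above all 6 others, and the Δ2w mice overlapped with control. The group means were 8.75 ± 0.59 (SD, n = 3) for control mice, 10.63 ± 0.37 for Δ1w mice and 9.16 ± 0.25 for Δ2w mice. The increase in Δ1w corresponded to 3.69-fold (95% confidence interval 2.38 to 5.70; limma adjusted p = 0.00891) and ranked 74 by p among all gene rows. In Δ2w the change was 0.41 on the log2 scale (interval -0.21 to 1.04; limma adjusted p = 0.781), and ran from 0.088 without control replicate 1 to 0.66 without control replicate 6. Igfbp6 was at the 83.2 to 92.9 percentile of the negative control probes in control mice and at the 96.1 to 97.5 percentile in Δ1w mice. With the control signal raised to the 95th percentile of negative control probes on each array, the Δ1w mean was at least 1.60-fold higher.

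Set directly against Δ2w, Igfbp6 in Δ1w was 1.47 log2 units higher (interval 0.84 to 2.10), which ranked 32 among all gene rows but did not pass (limma adjusted p = 0.191); 0.0045% of gene rows, a single one, passed in that comparison. The test over the 3 groups together gave a limma adjusted p of 0.0222 for Igfbp6, where 0.653% of gene rows passed. Fitted against the labelled number of myonuclei, Igfbp6 changed by 0.89 ± 0.22 (SE) log2 units for each 100 fewer myonuclei (limma adjusted p = 0.0966; 0.838% of gene rows passed).

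Igfbp4 lay next in order of evidence. Its log2 signal was 9.81, 9.79 and 10.18 in control, 10.39, 11.03 and 10.79 in Δ1w, and 10.32, 10.29 and 10.31 in Δ2w. The 3 groups did not overlap, with Δ2w between the others. The difference between Δ1w and control was 0.81 log2 units or 1.75-fold (interval for the log2 difference 0.39 to 1.23), short of the threshold (limma adjusted p = 0.0682), or at least 1.58-fold with control signals raised to the background percentile. That between Δ2w and control was 0.38 log2 units (interval -0.05 to 0.80; limma adjusted p = 0.704). The slope was 0.42 ± 0.11 (SE) per 100 fewer myonuclei (limma adjusted p = 0.108). Without Δ1w replicate 1, the lowest of its group, the difference was 0.98 and passed (limma adjusted p = 0.0222), and it also passed in 3 other of the 18 alternative limma fits, whose adjusted p ranged from 0.0222 to 0.220.

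The promoters of Igfbp6 and Igfbp4 are shown because these genes had the smallest p of the 10 in Δ1w muscle. They are the 250 bases before an annotated transcript start in RefSeq on the mouse assembly GRCm38.p6, with capitals marking TATAAA on either strand. The Igfbp6 stretch is chr15:102143936-102144185 and the Igfbp4 stretch chr11:99040994-99041243, both on the + strand. The Igfbp4 stretch lies inside the RefSeq gene, which begins at base 99040005, so that it precedes a later start of that gene.
Igfbp6: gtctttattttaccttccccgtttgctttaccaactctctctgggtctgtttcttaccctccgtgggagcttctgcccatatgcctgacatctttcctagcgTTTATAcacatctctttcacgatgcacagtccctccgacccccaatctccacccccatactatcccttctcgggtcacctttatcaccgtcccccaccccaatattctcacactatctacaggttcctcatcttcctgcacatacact
Igfbp4: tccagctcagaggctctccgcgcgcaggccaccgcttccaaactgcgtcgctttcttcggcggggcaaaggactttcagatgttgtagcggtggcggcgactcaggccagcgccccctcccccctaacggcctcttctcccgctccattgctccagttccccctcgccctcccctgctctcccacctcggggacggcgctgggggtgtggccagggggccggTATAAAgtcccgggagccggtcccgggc
In Igfbp4 the match begins 28 bases before this later start on the strand of the gene, about where a TATA box usually sits. In Igfbp6 it lies on the opposite strand (read as TTTATA), 148 bases before the start. The G and C content was 49.6% in Igfbp6 and 69.2% in Igfbp4, beside a median of 52.4% over all 32851 promoters of the table.

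Promoters of 9 of the 10 genes were in that table, all but Insr. As with Igfbp4, the stretches of Igf1 and Igfbp3 lie inside the RefSeq gene and precede a later start. TATAAA occurred on either strand in 2 of the 9, Igfbp4 and Igfbp6, and in 12.4% of all promoters. The GC box core GGGCGG was in 4 of the 9 (Igf1r, Irs1, Irs2 and Igfbp7) and in 32.7% of all promoters. The myogenic E-box CAGCTG was in 1 of the 9, Igf1, and in 13.0% of all, and the FoxO core GTAAACA was in 0 of the 9 and 3.17% of all. These are letter matches within 250 bases and no measure of binding.

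The other 3 binding proteins did not pass in either comparison. Igfbp5 measured 14.90, 14.74 and 15.55 log2 signal in control, 14.00, 15.05 and 13.77 in Δ1w, and 15.19, 15.35 and 14.43 in Δ2w. Δ1w replicates 1 and 8 lay below every other mouse, but Δ1w replicate 5 lay within the control range. The Δ1w difference was -0.79 log2 units (interval -1.55 to -0.03; limma adjusted p = 0.337), opposite in sign to that of Igfbp6, and the Δ2w difference was -0.07 (limma adjusted p = 0.978).

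Igfbp3 spread widely among Δ1w mice, with 8.18, 9.85 and 9.15 log2 signal against 8.88, 8.45 and 8.72 in control and 8.98, 9.18 and 9.04 in Δ2w. The lowest and the highest of all 9 mice were thus both Δ1w, and the SD in Δ1w was 0.84 against 0.22 in control and 0.11 in Δ2w. The differences from control were 0.38 in each group (limma adjusted p = 0.668 in Δ1w and 0.827 in Δ2w). Igfbp7 varied little, from 16.3 to 16.9 log2 signal over the 9 mice, and differed from control by -0.04 in Δ1w and 0.20 in Δ2w (limma adjusted p = 0.962 and 0.849).

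**Figure D2:**
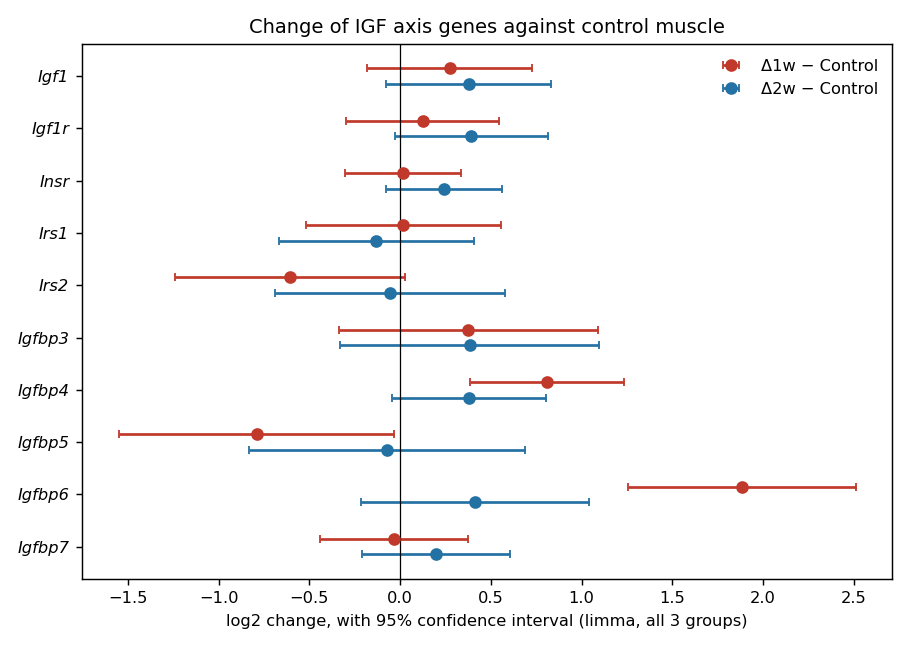
The log2 change of each of the 10 genes against control, with its 95% confidence interval from the limma fit on all 3 groups, in Δ1w (red) and Δ2w (blue) muscle. For Igfbp6 the Δ1w interval runs from 1.25 to 2.51 and the Δ2w interval from -0.21 to 1.04; only Igfbp6, Igfbp4 and Igfbp5 have a Δ1w interval that leaves out 0.

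The ligand Igf1 measured 14.67, 14.46 and 14.69 log2 signal in control, 14.69, 14.82 and 15.13 in Δ1w, and 15.18, 14.56 and 15.21 in Δ2w. The lowest Δ1w mouse barely cleared the highest control mouse (14.690 against 14.688), and 1 Δ2w mouse fell within the control range. The differences were 0.27 in Δ1w (interval -0.18 to 0.73; limma adjusted p = 0.618) and 0.38 in Δ2w (interval -0.08 to 0.83; limma adjusted p = 0.720), and the upper ends of these intervals were 1.65-fold in Δ1w and 1.78-fold in Δ2w. Leaving out 1 mouse gave 0.15 to 0.37 in Δ1w, the lowest without Δ1w replicate 8, and 0.26 to 0.59 in Δ2w, the highest without Δ2w replicate 3.

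The insulin receptor gene Insr was the steadiest of the 10. Its log2 signal was 13.42, 13.30 and 13.29 in control, 13.36, 13.31 and 13.38 in Δ1w, and 13.56, 13.62 and 13.55 in Δ2w. All 3 Δ2w mice lay above all 6 others, the nearest being 13.55 in Δ2w and 13.42 in control, while control and Δ1w overlapped. The Δ2w difference from control was 0.24 (interval -0.08 to 0.56; limma adjusted p = 0.744) and the Δ1w difference was 0.01 (interval -0.31 to 0.33; limma adjusted p = 0.983).

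Igf1r, dim on this array, followed the same order, at 8.44, 7.94 and 8.62 log2 signal in control, 8.44, 8.52 and 8.41 in Δ1w, and 8.62, 8.67 and 8.89 in Δ2w. The Δ2w mice lay above all others by less than 0.01 log2 units. The differences were 0.12 in Δ1w and 0.39 in Δ2w (limma adjusted p = 0.834 and 0.703). Between Δ1w and Δ2w, Igf1r and Insr differed by -0.27 and -0.23 log2 units (limma adjusted p = 0.762 and 0.722).

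The adaptors did not pass either. Irs2 measured 9.47, 9.96 and 9.40 log2 signal in control, 9.42, 8.71 and 8.87 in Δ1w, and 8.94, 9.64 and 10.08 in Δ2w. Δ1w replicate 1 lay within the control range and the other two Δ1w mice lay below every mouse of the other groups. The Δ1w difference was -0.61 (interval -1.24 to 0.02; limma adjusted p = 0.379) and the Δ2w difference -0.06 (limma adjusted p = 0.980).

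Irs1 measured 10.48, 10.86 and 10.88 log2 signal in control, 10.13, 11.01 and 11.13 in Δ1w, and 10.68, 10.57 and 10.57 in Δ2w. As with Igfbp3, the lowest and the highest mice were both Δ1w. Its differences from control were 0.02 in Δ1w and -0.13 in Δ2w (limma adjusted p = 0.986 and 0.935).

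Counted as a group, the 10 genes had a median change of 0.07 log2 units in Δ1w and 0.31 in Δ2w, beside medians of 0.00 over all gene rows in each comparison. In Δ1w the mice did not overlap with control for 3 of the 10 genes (Igf1, Igfbp4 and Igfbp6), all higher, where 8.53% of gene rows were higher and 8.95% lower without overlap. In Δ2w this held for 4 of the 10 (Igf1r, Insr, Igfbp3 and Igfbp4), again all higher, where 7.52% of gene rows were. At an unadjusted p under 0.05, 3 of the 10 stood out in Δ1w (Igfbp4 and Igfbp6 higher, Igfbp5 lower), a mark reached by 14% of gene rows, 7.2% upward and 6.79% downward, and 0 in Δ2w, where 7.47% of gene rows reached it. Between Δ1w and Δ2w, Igfbp4 and Igfbp6 had an unadjusted p under 0.05, as had 8.29% of gene rows.

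The rest of the pathway was read from a list of 68 further genes sorted by role, of which 63 had a row and 29 were clear of background on all arrays. In Δ1w, 1 of the 63 rose, 0 fell and 62 did not pass, where 1.41% of all gene rows passed. The median change of the 63 was -0.11 log2 units. In Δ2w, 0 passed (limma; 3 higher and 4 lower at an unadjusted p under 0.05, beside 3.98% and 3.49% of gene rows), with a median of -0.02. At an unadjusted p under 0.05, 8 of the 63 were higher and 13 lower in Δ1w, beside 7.2% and 6.79% of gene rows.

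The gene that rose was Tbc1d1, a Rab GTPase-activating protein that Akt and AMPK phosphorylate to release glucose transporters to the membrane. It measured 12.23, 12.002 and 11.85 log2 signal in control, 12.86, 12.95 and 13.07 in Δ1w, and 12.89, 12.78 and 12.57 in Δ2w. Both Δ groups lay wholly above control and overlapped with each other. The increase was 0.93 log2 units in Δ1w (limma adjusted p = 0.0218), and the difference was 0.72 in Δ2w (limma adjusted p = 0.293). The Δ1w call was lost without control replicate 2 or 6 or without Δ1w replicate 5 or 8, at changes between 0.84 and 0.94 and adjusted p between 0.0707 and 0.0856.

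The next 4 of the list by p in Δ1w did not pass. Pik3cb, a catalytic subunit of PI3K, differed by -0.61 log2 units (limma adjusted p = 0.0841) and Stc1, a stanniocalcin that inhibits PAPP-A, by -0.81 (limma adjusted p = 0.0909). Fbxo32, the FoxO target that encodes the ubiquitin ligase atrogin-1, differed by 1.24 (limma adjusted p = 0.109). Its Δ1w mice measured 11.96, 12.63 and 11.18 log2 signal against 10.42, 11.31 and 10.33 in control, and Δ1w replicate 8 lay within the control range. Trim63, listed with Fbxo32 and clear of background on all arrays, differed the other way, by -0.74 (limma adjusted p = 0.125). Its Δ1w mice, at 12.48, 13.13 and 12.90, lay wholly below control, at 13.83, 13.46 and 13.43. Grb10, an adaptor that restrains the insulin and IGF-1 receptors, differed by -0.79 (limma adjusted p = 0.110), with 11.72, 11.996 and 11.98 in Δ1w wholly below 12.78, 12.26 and 13.04 in control. Stc1 and Pik3cb were not clear of background on any array.

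In Δ2w the smallest p after Tbc1d1 belonged to Gab1, a docking adaptor (-0.64), Pik3ca, the other main PI3K catalytic subunit (0.51), Foxo4 (-0.63) and Igf2 (-0.48), with limma adjusted p between 0.301 and 0.598. Gab1 and Foxo4 were not clear of background on any array. Foxo4 differed by -0.69 in Δ1w (limma adjusted p = 0.135). Igf2, the fetal ligand and the preferred partner of IGFBP6, measured 16.45, 16.84 and 16.77 log2 signal in control, 15.97, 16.31 and 16.41 in Δ1w, and 16.35, 16.10 and 16.16 in Δ2w. Both Δ groups lay wholly below control, and the Δ1w difference was -0.45 (limma adjusted p = 0.285). By role, the median change in Δ1w ran from -0.54 for the 6 genes of the FoxO branch and -0.42 for the 6 of growth hormone input to 0.21 for the 2 further receptors. These medians include genes clear of background on no array: Foxo1, Foxo3, Foxo4 and Foxo6, Stat5a and Cish, and the receptor Insrr. In the FoxO branch Fbxo32 (1.24) and Trim63 (-0.74) were clear of background and differed in opposite directions.

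**Figure D3:**
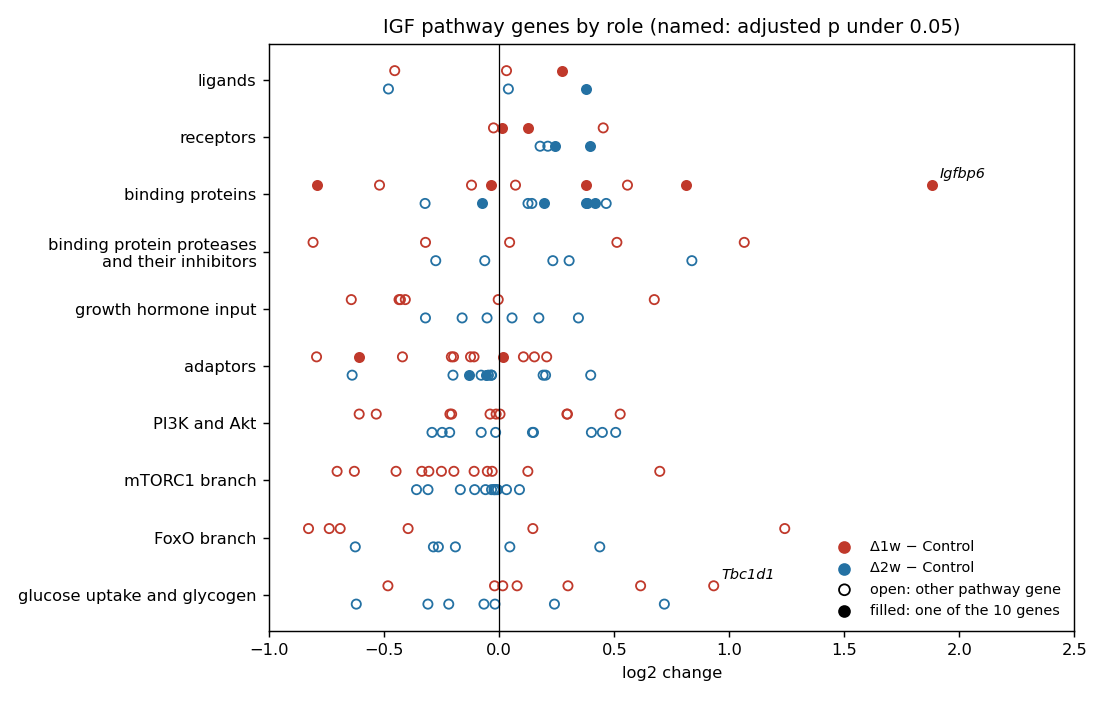
The log2 change against control of each measured IGF pathway gene, 1 row of points per role, in Δ1w (red) and Δ2w (blue) muscle, with the 10 genes filled and the further 63 open. Only Igfbp6 at 1.88 and Tbc1d1 at 0.93, both in Δ1w, had an adjusted p under 0.05.

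Marker genes of other cells were read beside the binding proteins. The fibroblast and matrix list had 8 of 10 genes measured, 7 of them clear of background on all arrays and Pi16 on none. All 8 had a change above 0 in Δ1w, as had 49.7% of gene rows, with a median of 1.11 log2 units. Of the 8, 2 rose, where 0.905% of gene rows rose. These were Dpt (1.43, limma adjusted p = 0.0270) and Mfap5 (1.94, limma adjusted p = 0.0217), both matrix proteins. In Δ2w all 8 were above 0 (49.3% of gene rows) with a median of 0.58 and 0 passed. The list's mean log2 signal ran from 13.2 to 13.9 in control, 14.1 to 15.2 in Δ1w and 13.8 to 14.3 in Δ2w, and its summed linear signal from 233000 to 384000, 392900 to 798100 and 348700 to 482900. It was highest in Δ1w replicates 5 and 8, the mice with the higher Igfbp6 and Igfbp4 as well. Those mice were also the highest in the slow fiber list (13.39 and 13.19) and in the tendon list (10.56 and 10.13). In the fibroblast and matrix list Δ1w replicate 1, at 14.09, lay below Δ2w replicate 2, at 14.26, unlike in Igfbp6.

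Slow fiber markers also moved with Δ1w: 4 of 8 rose (Tnni1, Tnnc1, Myl2 and Tpm3), where 0.905% of gene rows rose. The median change was 1.98 log2 units, with 7 of 8 above 0. Myl3 was the exception, at -0.16 in Δ1w (limma adjusted p = 0.825) and -0.99 in Δ2w (limma adjusted p = 0.301). Of the 8, 4 were clear of background on all arrays, Tnnc1 on 6 and Tnni1 on 3. The list mean ran from 10.8 to 11.7 in control, 12.5 to 13.4 in Δ1w and 10.4 to 11.6 in Δ2w. The tendon list had 0 of 6 passing and a median of 0.61 in Δ1w, and 3 of its 6 genes (Scx, Mkx and Comp) were clear of background on no array. The endothelial list, with 10 genes measured, had a median of -0.13 in Δ1w, and the pericyte and smooth muscle list, with 9, a median of 0.01, each with 0 passing. The adipocyte list had a median of 0.60 in Δ1w, with 4 genes measured and 1 clear of background on all arrays. That of macrophages and other immune cells had 0.26, with 6 measured and 1 clear of background on all arrays. The Schwann cell list (3 measured) had 0.17 and the erythroid list (1 measured) 0.26, with 0 clear of background on all arrays. In each of these lists 0 passed. The part of any of these cells in the Igfbp6 and Igfbp4 signals was not tested.

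**Figure D4:**
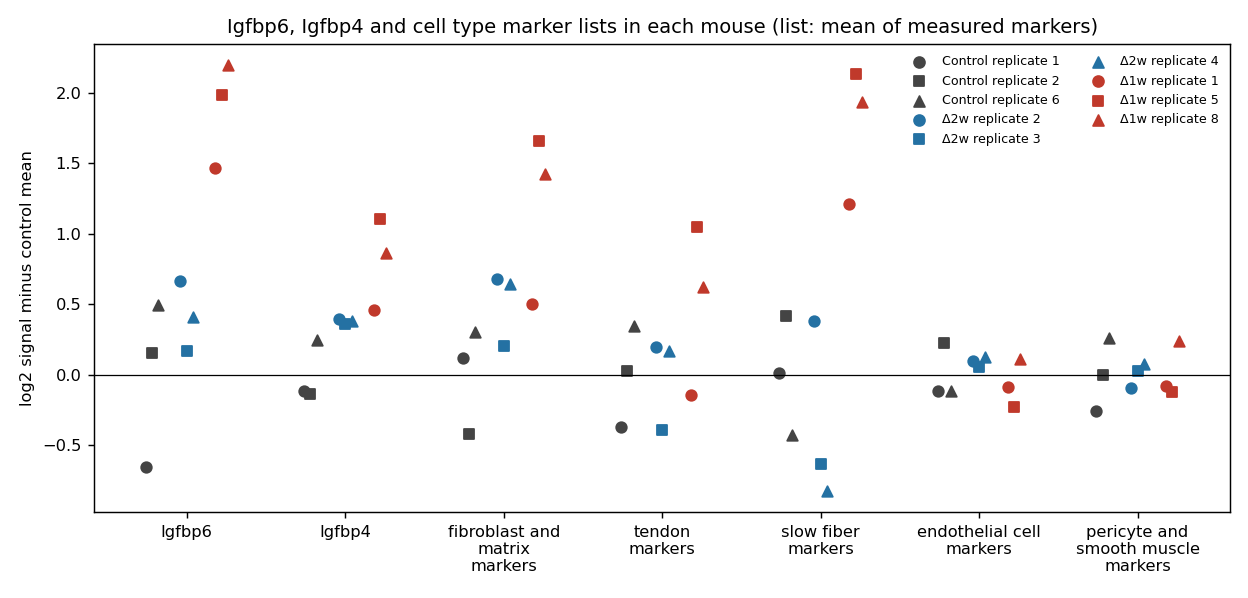
The log2 signal of Igfbp6 and Igfbp4, and the mean log2 signal of 5 marker lists, in each mouse, all as differences from the control mean. Colours give the group and symbols the replicate. In Δ1w mice the fibroblast and matrix list and the slow fiber list stand above control together with Igfbp6, while the endothelial and pericyte lists stay near 0.

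The genes whose pattern over the 9 arrays was most like that of Igfbp6, by the root-mean-square difference of log2 signals centred on each row's mean among the 10861 rows averaging 6 or more in log2 signal, were Ehd3 (0.23), an endocytic recycling protein, Mgst1 (0.30), a membrane-bound glutathione transferase, Col8a1 (0.34), a short-chain collagen, Mfap2 (0.36), a microfibril protein of elastic fibers, and Sod3 (0.37), the extracellular superoxide dismutase. Their changes in Δ1w ran from 1.41 to 1.81 log2 units, and 4 of the 5 passed the test, Col8a1 being the exception (limma adjusted p = 0.0583). In Δ2w none of the 5 passed, with limma adjusted p from 0.704 to 0.983. They were picked for this likeness, so that their changes are a description.

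The Igfbp6 increase held in each way of processing that was tried with limma. Over 18 alternatives, among them leaving out each of the 9 mice in turn, its change in Δ1w ran from 1.56 to 2.13 log2 units and its adjusted p from 0.00247 to 0.0497. The smallest change was without control replicate 1, the control mouse with the lowest Igfbp6. No Δ1w mouse shared the prefix of its sample name with a control, so that these alternatives could not tell group from prefix. The methods' t-test after Benjamini-Hochberg adjustment passed 0 gene rows in this comparison, Igfbp6 included.

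**Figure D5:**
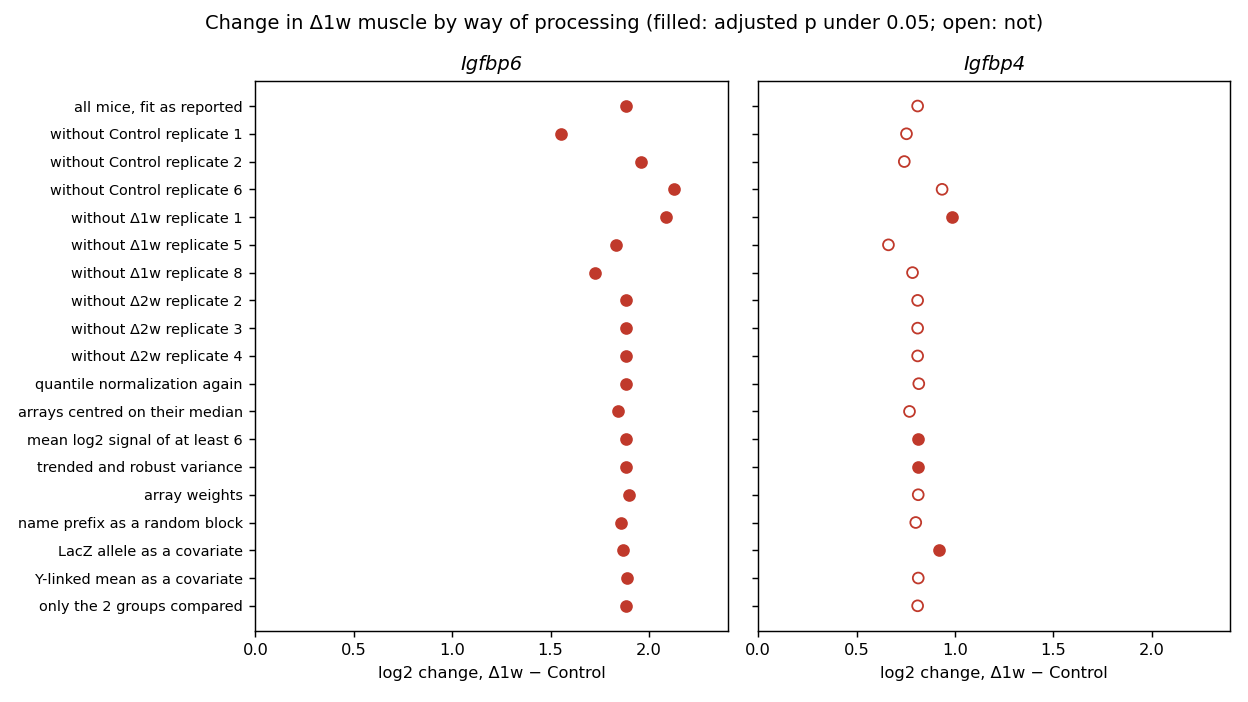
The log2 change of Igfbp6 (left) and Igfbp4 (right) in Δ1w against control under the limma fit as reported and 18 alternatives, 1 per line. Filled points had an adjusted p under 0.05. Igfbp6 is filled in all, between 1.56 and 2.13, and Igfbp4 in 4 of the 18 alternatives.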

How the data were processed

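Tibialis anterior RNA from 9 mice (3 control, 3 Δ1w, 3 Δ2w) was hybridized to 1 Clariom S Mouse array each. The values deposited by the authors are log2 signals after their signal space transformation and robust multi-array averaging. Affymetrix Expression Console is named in the submitters' processing notes, without a version. The authors' normalization pulls the arrays to 1 distribution, so that a change means a change relative to the other genes. Array signals have no counting depth, and the number of mice limits the precision. The table had 28846 rows; 6640 control probes, 5222 of them negative controls, were left out of the tests, and 22206 gene rows were tested. Of these, 19572 had 1 symbol, 0 several and 2634 none in the platform annotation. Unused columns of per-sample values numbered 0.

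Groups were compared by fitting the log2 signals of all 9 arrays with limma 3.58.1 and moderating the variances by eBayes (R 4.3.3), two-sided, with Benjamini-Hochberg adjustment over all gene rows, and groups, differences and the slope on labelled myonuclei were fitted without covariates. Each group's mice were treated as separate animals, as the labels list them. The procedure was tested on simulated data. All 10 genes were named, with pathway genes that passed against control or had the 5 smallest p in each such comparison, and the 5 genes most like Igfbp6. Some other pathway genes, Trim63 among them, were named for their direction or their background signal. The 10 genes and all lists were chosen with earlier results of these data known. Alternatives covered leaving out each mouse, normalization, centring, a filter on dim rows, the variance model, array weights, the LacZ allele, sex-linked signal, the sample name prefix, the samples fitted and an unpaired t-test.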

Additional observations from a re-analysis of the deposited data

How the results depend on the processing

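For the 10 genes in Δ1w against control, the count was 1 in the fit as reported, where 312 of the 22206 gene rows passed. It became 2 (Igfbp4 joined Igfbp6) when dim rows (mean log2 signal under 6) were left out, where 544 of the rows kept passed. It was also 2 with trended and robust variance (521 gene rows passed) and with the LacZ allele as a covariate (376). With the unpaired t-test it was 2 at the unadjusted threshold, which 2154 gene rows reached, and 0 after Benjamini-Hochberg adjustment (0 gene rows). Leaving out 1 mouse gave 1 to 2, the 2 coming without Δ1w replicate 1 (653 gene rows passed). The unpaired t-test without adjustment gave 2 in Δ2w against control (Insr and Igfbp4), where 1681 gene rows reached its threshold. It gave 3 in Δ1w against Δ2w (Igf1r, Insr and Igfbp6), where 1542 gene rows did. Limma gave 0 in each. In the slope, log2 of myonuclei gave 1 (Igfbp6), where 276 gene rows passed. Leaving out 1 mouse gave 0 to 0 in each of these. For the further pathway genes in Δ1w, the count of 1 became 2 when dim rows were left out (Pik3cb and Tbc1d1), 0 with only the 2 groups compared, 0 and 17 with the methods' t-test after and before adjustment, and 0 to 2 without 1 mouse: 0 when control replicate 6 or Δ1w replicate 5 was absent, and 2 when Δ1w replicate 1 or 8 was. In Δ2w it was 10 with the unpaired t-test before adjustment, where 1681 gene rows reached the threshold. The causes were not tested.

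Mymk kept its sign throughout. Without 1 mouse its log2 change ran from -4.10 to -3.36 in Δ1w and from -4.63 to -3.79 in Δ2w; the Δ2w call was lost when control replicate 2 (-4.13) or 6 (-4.33) or Δ2w replicate 3 (-4.27) was left out, with limma adjusted p from 0.0527 to 0.0759, and within the shared name prefix (-4.13, limma adjusted p = 0.0855). After Benjamini-Hochberg adjustment the unpaired t-test passed neither (-3.68 and -4.23).

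Some changes that did not pass turned sign. In Δ1w, leaving out 1 mouse gave -0.074 to 0.27 for Igf1r, -0.012 to 0.057 for Insr, -0.17 to 0.33 for Irs1, -0.019 to 0.82 for Igfbp3 and -0.20 to 0.0595 for Igfbp7. Centring on array medians gave -0.028 for Insr and -0.024 for Irs1, the name prefix as a random block -0.017 for Irs1, and a further quantile normalization 0.042 for Igfbp7. In Δ2w, leaving out 1 mouse gave -0.32 to 0.25 for Irs2 and -0.25 to 0.21 for Igfbp5, and Irs2 was 0.10 with the LacZ covariate and 0.12 within the shared name prefix. Of 811 alternative values for 40 single results, 762 kept sign and side of the threshold, 7 no longer passed and 21 turned sign. The other 21 passed only in the alternative, most by unadjusted t-test.

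The name prefix was shared by control replicates 1 and 6 and all Δ2w mice and by no Δ1w mouse with a control, so that no Δ1w difference could be taken within a prefix. The Δ1w changes and the prefix thus cannot be told apart. Igfbp6 in Δ1w was at 1.86 with the prefix as a random block (correlation 0.14), which cannot remove a difference between prefixes that groups do not share. No paired analysis was possible: labels pair no mice across groups, and a shared replicate number marks no pair. Each of the 10 genes has 1 row, so no other could be tried. Of the 10 genes, 5 lay within the background range on some array, and 3 mice per group limit the precision.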
